A study of Sus scrofa with 24 samples.

Results

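The DLK1-DIO3 domain is an imprinted region, in which some genes are read only from the copy inherited from the father and others only from the copy inherited from the mother. DLK1, also called preadipocyte factor 1, is a paternally expressed membrane protein that holds back adipocyte differentiation, and DIO3 is an enzyme that inactivates thyroid hormone. Between them lie the maternally expressed long noncoding RNA MEG3 and a dense row of small hairpins that are cut into miRNAs. A miRNA is a short RNA that recognizes its target mRNAs mainly through bases 2 to 8 from its 5′ end, the seed, and reduces their translation or stability.

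The miRNAs described here are those of the distal portion of this row, on the DIO3 side of miR-370. They were found by name in a table of 1587 miRNA entries of the pig, as the entries called miR-323, miR-369, miR-376, miR-381, miR-382, miR-411, miR-487, miR-494, miR-495 or miR-758 with any letter or arm suffix. The names matched 10 entries: ssc-miR-323, ssc-miR-376a-3p, ssc-miR-376a-5p, ssc-miR-376c, ssc-miR-381-3p, ssc-miR-381-5p, ssc-miR-382, ssc-miR-411, ssc-miR-487b and ssc-miR-758. No entry of the table was named miR-369, miR-494 or miR-495.

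Small RNA was sequenced from 24 cultures of adipocytes of six-day-old Yorkshire piglets, 3 for each of 8 groups. The cells came from back subcutaneous fat (BF) or, for intramuscular adipocytes (IMF), from the longissimus dorsi muscle, and were collected on day 0, day 2, day 4 and day 8 of differentiation. Both sources received the same induction medium with 3-isobutyl-1-methylxanthine, dexamethasone and insulin for 2 days. Medium with insulin followed for another 2 days, and growth medium after that, so the medium changed between the days of collection. No culture left without induction was followed beside them, so time in culture and treatment cannot be told apart. Preadipocytes were plated from digested tissue of 3 piglets with no sort described, and the sources used here do not say which piglet a culture came from, so p-values measure only the spread between these libraries, which may be technical.

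The values are called TPM in the deposited table and are reads per 1000000 reads counted on miRNAs, without a term for length. Libraries held from 4954845 to 16863560 such reads, so that 1 read was worth from 0.0593 to 0.202 TPM. Because the values are shares, they also move with the most abundant entry, ssc-miR-21-5p, which held between 27.9% and 60.5% per library. Markers of other cell types differed between the sources on some days. The summed level of 7 skeletal muscle miRNAs was 819 to 1013 TPM in BF-0d and 910 to 1739 TPM in IMF-0d, 475 to 544 TPM in BF-2d and 814 to 1065 TPM in IMF-2d, 1043 to 1526 TPM in BF-4d and 696 to 985 TPM in IMF-4d, and 1324 to 2362 TPM in BF-8d and 982 to 1632 TPM in IMF-8d. It was thus higher in every IMF library on day 2 and lower in every IMF library on day 4. The endothelial miR-126 (2 arms) summed to 26.4 to 90.9 TPM in BF and 18.2 to 40.4 TPM in IMF, without overlap on day 4 (53.6 to 86.4 against 18.7 to 30.9 TPM) and day 8 (51.2 to 90.9 against 24.6 to 34.8 TPM). The sum of 6 blood cell miRNAs stayed between 0.662 and 8.08 TPM. It was lower in every IMF library on day 2 (1.31 to 1.70 against 1.86 to 2.52 TPM) and day 4 (0.662 to 1.60 against 2.81 to 6.37 TPM), and higher in every one on day 8 (6.68 to 8.08 against 3.71 to 4.44 TPM). The part of muscle, endothelial or blood cells in the results was not tested.

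All 10 mature sequences were found in the Sscrofa11.1 genome on the plus strand of 1 unplaced scaffold (NW_018084979.1 in RefSeq), where their 8 hairpins span 28515 bases from 30003 to 58517. DIO3 lies farther along the same scaffold, at 504081 to 506187, whereas DLK1, MEG3 and RTL1 are annotated on chromosome 7. The RefSeq annotation has genes for the hairpins of miR-376c, miR-376a and miR-381 and none at the other hairpins, which lie between the noncoding genes LOC110258339 (9 to 25295) and LOC110258356 (70451 to 76048). In the order of the scaffold, the mature sequences are given below from 5′ to 3′ as DNA letters, with the seed in capitals, because the seed decides which mRNAs each miRNA can pair with.

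ssc-miR-411: aTGTAACAcggtccactaac

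ssc-miR-323: gCACATTAcacggtcgacctct

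ssc-miR-758: tTTGTGACctggtccactaac

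ssc-miR-376c: gTGGATATtccttctatgttta

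ssc-miR-376a-5p: gTAGATTCtccttctatgagtac

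ssc-miR-376a-3p: aTCATAGAggaaaatccacgt

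ssc-miR-381-5p: aGCGAGGTtgccctttgtatatt

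ssc-miR-381-3p: tATACAAGgacaagctctctgt

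ssc-miR-487b: gTGGTTATccctgtcctgttcg

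ssc-miR-382: aAGTTGTTcgtggtggattcg

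The 10 seeds are all different, and none of them occurs at the same place in any other of the 958 entries whose sequence was listed. miR-411 and miR-758, whose hairpins start 2721 bases apart, share their last 11 bases (ggtccactaac), and miR-376c and miR-376a-5p share a run of 10 bases (tccttctatg) from base 9, both outside the seed. miR-411 and miR-323 share a run of 8 (acacggtc), which starts at base 6 of miR-411 and base 8 of miR-323 and so takes in the end of both seeds. Of the 10 sequences, 9 have 1 exact copy in the genome. miR-376c has 2, at 45245 to 45266 and at 45975 to 45996 of the scaffold, and a read does not tell which of them it came from. The 3p arm of the hairpin gave 5 of the members (miR-411, miR-323, miR-758, miR-376a-3p and miR-381-3p) and the 5p arm gave the other 5.

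The members differed in level by more than 5 orders of magnitude. miR-381-3p averaged 15335 TPM over the 24 libraries, rank 7 of all entries, and held from 98.4% to 99.4% of the reads of the 10 members in every library. miR-758 averaged 132 TPM, miR-411 17.9 TPM, miR-323 11.0 TPM and miR-382 9.30 TPM. The other 5 stayed under 1 TPM, with means of 0.919 TPM for miR-376a-3p, 0.312 TPM for miR-376a-5p, 0.306 TPM for miR-376c, 0.173 TPM for miR-381-5p and 0.0719 TPM for miR-487b. The 4 members described in most detail were selected on these mean levels, at a minimum of 10 TPM, with miR-323 just inside and miR-382 just outside. In BF alone miR-411 and miR-323 averaged under 10 TPM, so both passed this minimum only through IMF. The hairpin of miR-381 was read almost wholly from one arm, with 4168174 reads of the 3p arm and 46 of the 5p arm in all libraries, whereas the hairpin of miR-376a gave 251 reads of its 3p arm and 85 of its 5p arm.

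miR-381-3p was higher in IMF than in BF on each day, and all 12 IMF libraries lay above all 12 BF libraries. This held for 17 of the 430 entries with a mean of 1 TPM or more (3.95%), of which 3 were members, miR-381-3p, miR-758 and miR-323. On day 0 it was at 4308, 4839 and 3957 TPM in BF and at 16928, 23010 and 19030 TPM in IMF. On day 2 the BF libraries had 11961, 13203 and 8101 TPM and the IMF libraries 24937, 21987 and 24501 TPM. The BF libraries of day 2 were thus the highest of BF in mean, and still below every IMF library. On day 4 it was at 8787, 8124 and 7647 TPM in BF against 20013, 21775 and 16771 TPM in IMF, and on day 8 at 6714, 6139 and 5164 TPM against 24748, 32214 and 33184 TPM. As a share of all miRNA reads, it ranged from 0.437% ± 0.0444 (SD, n = 3) in BF-0d to 3.0% ± 0.462 (SD, n = 3) in IMF-8d, the lowest and the highest of the group means.

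The difference between sources was tested with limma on log2(TPM + 1) of the 3 and 3 libraries of a day, over the 430 entries that averaged 1 TPM or more. An entry was called a DE-miRNA when its fold change was above 1.5 and its FDR (Benjamini-Hochberg, over all 430) was under 0.05, and a log2FC is IMF minus BF or the later day minus the earlier. On this scale the change of entries with low values is understated. For miR-381-3p the log2FC was 2.16 ± 0.146 (SE; adjusted p = 0.000698) at day 0, 1.13 ± 0.190 (adjusted p = 0.0183) at day 2, 1.25 ± 0.175 (adjusted p = 0.00028) at day 4 and 2.32 ± 0.199 (adjusted p = 8.04e-07) at day 8. It was thus a DE-miRNA on all 4 days, with a mean in IMF that was 4.5 times that in BF on day 0, 2.15 times on day 2, 2.38 times on day 4 and 5.0 times by day 8. In cultures of mixed cells, a higher share of cells with a miRNA and more of it per cell cannot be told apart.

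**Figure D1:**
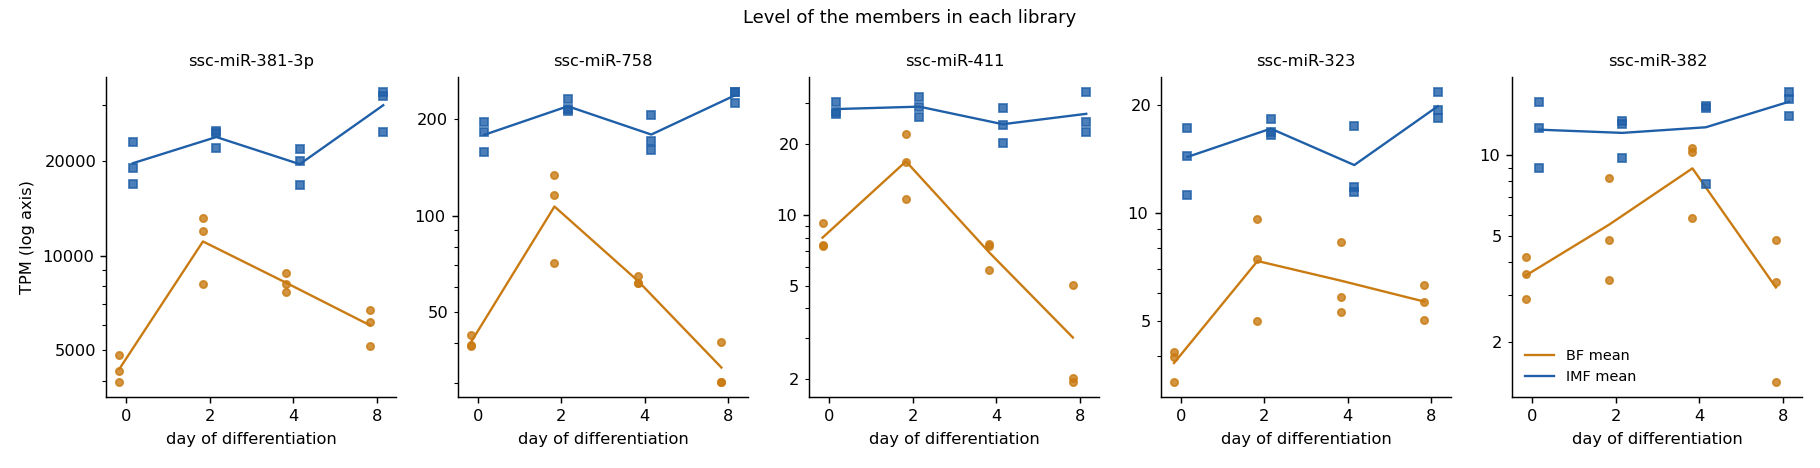
TPM of the 5 members with a mean of at least 1 TPM in each of the 24 libraries (points, log axis) by day of differentiation (days evenly spaced), with the mean of each group of 3 as a line, BF in orange circles and IMF in blue squares. For miR-381-3p, miR-758 and miR-323 all 12 IMF points lie above all 12 BF points, as for 3.95% of all entries tested, and the BF means of all 5 members are higher on day 2 than on day 0.

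miR-758, the second most abundant member, is known as a regulator of the cholesterol transporter ABCA1. It had the same order of sources and was another of those 3.95% of entries, with no overlap between the 12 BF libraries (30.1 to 134 TPM) and the 12 IMF libraries (158 to 244 TPM). On day 0 it was at 39.1, 42.2 and 39.5 TPM in BF and 158, 196 and 183 TPM in IMF. On day 2 BF held 116, 134 and 71.1 TPM against 232, 213 and 215 TPM in IMF, and on day 4 64.6, 61.5 and 61.6 TPM against 160, 171 and 206.5 TPM. On day 8 BF was at 30.1, 40.2 and 30.3 TPM, while IMF was at 226, 244 and 243 TPM. The log2FC was 2.12 ± 0.109 (SE; adjusted p = 0.000371) on day 0, 1.08 ± 0.239 (adjusted p = 0.0358) on day 2, 1.497 ± 0.222 (adjusted p = 0.000364) on day 4 and 2.80 ± 0.171 (adjusted p = 4.58e-08) on day 8.

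miR-411 spanned a narrow range in IMF (20.3 to 33.5 TPM) and a wide one in BF (1.93 to 22.2 TPM). The BF libraries had 9.22, 7.43 and 7.35 TPM on day 0, 16.8, 22.2 and 11.7 TPM on day 2, 7.38, 7.51 and 5.83 TPM on day 4 and 2.03, 1.93 and 5.05 TPM on day 8. The IMF libraries had 27.0, 30.3 and 27.5 TPM on day 0, 31.9, 28.7 and 26.3 TPM on day 2, 20.3, 24.2 and 28.6 TPM on day 4 and 33.5, 22.6 and 24.8 TPM on day 8. Of the 12 IMF libraries, 11 were above all BF libraries, and 1 IMF library of day 4 (20.3 TPM) was below 1 BF library of day 2 (22.2 TPM). miR-411 was a DE-miRNA on 3 of the days, with a log2FC of 1.71 ± 0.143 (SE; adjusted p = 0.00105) at BF-0d vs. IMF-0d, 1.68 ± 0.230 (adjusted p = 0.00028) at BF-4d vs. IMF-4d and 2.87 ± 0.287 (adjusted p = 2.97e-06) at BF-8d vs. IMF-8d. On day 2 its log2FC of 0.78 ± 0.238 missed the FDR (adjusted p = 0.0891). The lowest values rest on few reads, 26, 12 and 25 in the 3 BF-8d libraries.

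miR-323 was the least abundant of the 4. It stood at 3.98, 4.11 and 3.38 TPM in BF-0d, 7.43, 9.62 and 5.0 TPM in BF-2d, 8.31, 5.29 and 5.83 TPM in BF-4d and 6.31, 5.64 and 5.05 TPM in BF-8d. In IMF it stood at 14.4, 17.3 and 11.2 TPM on day 0, 16.5, 16.8 and 18.2 TPM on day 2, 11.8, 11.5 and 17.5 TPM on day 4 and 19.3, 18.4 and 21.7 TPM on day 8. It was the third member among the 3.95% of entries with all IMF libraries above all BF libraries. The log2FC was 1.65 ± 0.192 (SE; adjusted p = 0.00277) on day 0, 1.16 ± 0.225 (adjusted p = 0.0259) on day 2, 0.96 ± 0.253 (adjusted p = 0.00957) on day 4 and 1.64 ± 0.200 (adjusted p = 1.92e-05) on day 8. Without IMF-4d replicate 3, the highest of its group, miR-323 was no DE-miRNA on day 4, which left 3 members called on that day. Its call on day 4 was also lost when all 1587 entries were tested without a minimum level.

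miR-382, the last of the 10 members along the scaffold, overlapped between the sources. Its BF libraries ranged from 1.41 to 10.7 TPM with a median of 4.49 TPM, its IMF libraries from 7.79 to 17.3 TPM with a median of 13.8 TPM, and 9 of the 12 IMF libraries were above all BF libraries. It was a DE-miRNA at the ends of the course, with a log2FC of 1.55 ± 0.238 (SE; adjusted p = 0.00721) on day 0 and 2.09 ± 0.292 (adjusted p = 6.66e-05) on day 8. It was not one in between (day 2, 1.07 ± 0.295, adjusted p = 0.0668, and day 4, 0.45 ± 0.303, adjusted p = 0.272), and on day 4 its libraries overlapped, with 10.3, 5.82 and 10.7 TPM in BF and 15.4, 7.79 and 15.05 TPM in IMF. DESeq2 on whole reads did call it on day 4 (adjusted p = 0.0398).

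Counted over these 5 members, which averaged over 1 TPM in each source, DE-miRNAs higher in IMF numbered 5, 3, 4 and 5 at days 0, 2, 4 and 8, and limma called none lower. Among all 430 entries tested, DE-miRNAs higher in IMF were 13.5% at day 0, 5.81% at day 2, 7.44% at day 4 and 12.1% at day 8. The median log2FC of the 5 members was 1.71, 1.08, 1.25 and 2.32 on the 4 days, against medians over all entries of -0.13, -0.14, -0.34 and -0.28. miR-381-3p, miR-758 and miR-323 were among the 18 entries (4.19% of those tested) called higher in IMF on all 4 days. The call on day 2 was the least firm. It fell from 3 members to 0 without BF-2d replicate 1, or without any 1 of the 3 IMF-2d libraries. By edgeR and DESeq2 on the whole reads 5 were called, among 39 and 37 of all entries called higher in IMF.

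The scale matters for the size of these differences. Scaling the libraries by the median of ratios raised the median log2FC of all entries in the 4 comparisons of the sources by 0.108 to 0.342, and the member calls were then 5, 5, 4 and 5. The split of DE-miRNAs over the whole table moved with it, from 58 higher and 68 lower in IMF to 65 and 37 on day 0, from 25 and 28 to 35 and 25 on day 2, from 32 and 124 to 51 and 69 on day 4, and from 52 and 108 to 79 and 71 on day 8.

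**Figure D2:**
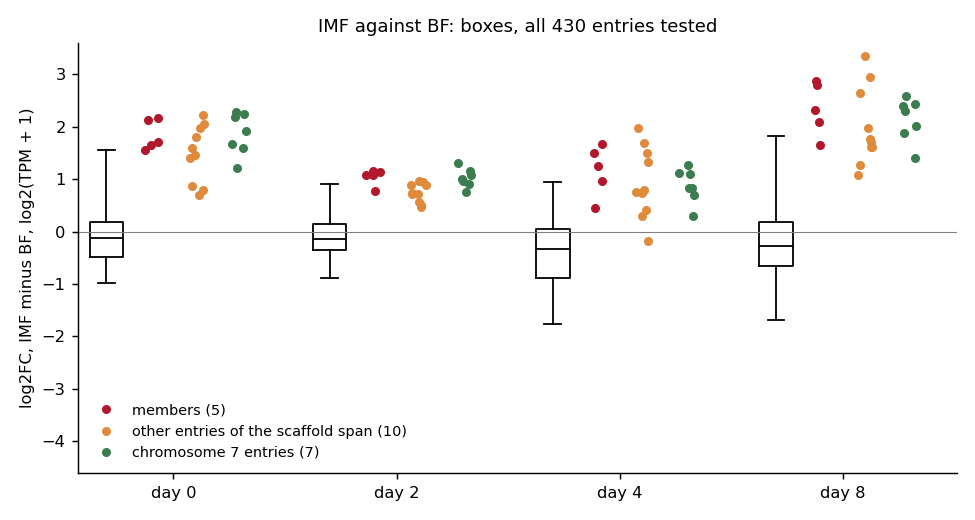
log2FC of IMF minus BF on each day, in log2(TPM + 1), for the 5 members (red), 10 other entries of the same stretch of scaffold (orange) and 7 entries of the chromosome 7 portion (green), beside boxes for all 430 entries tested (median, quartiles, whiskers at the 5th and 95th percentile). The members lie above 0 on every day, at 1.55 to 2.16 on day 0 and at 1.64 to 2.87 on day 8, while the medians of all entries lie below 0. Of the 10 other scaffold entries, 1 passed the minimum level only through IMF and is left out of the counts in the text.

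The 5 members under 1 TPM were described by their reads and were not tested. miR-376a-3p had 70 reads in the 12 BF libraries (1 to 13 per library) and 181 in the 12 IMF libraries (3 to 39 per library), of 126109483 and 137293638 miRNA reads. miR-376a-5p, from the other arm of the same hairpin, had 36 reads in BF and 49 in IMF, miR-376c had 26 and 56, and miR-381-5p had 19 and 27. In each of these the libraries of the sources overlapped. miR-487b had 0 reads in the 12 BF libraries, which allows up to 0.0238 TPM over them, and 20 reads in IMF, spread over 10 of 12 libraries with at most 4 in one. Against a floor of 3 reads over the BF libraries, the level in IMF was 6.12-fold higher. The floor covers counting error in BF only, and the counting error of the 20 reads in IMF was left out.

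Within BF, miR-381-3p and miR-758 were highest on day 2 and all 5 members had a positive log2FC up to that day. From BF-0d to BF-2d, miR-381-3p rose by a log2FC of 1.32 ± 0.199 (SE; adjusted p = 0.0217) and miR-758 by 1.34 ± 0.247 (adjusted p = 0.0333), so that 2 of the 5 members were DE-miRNAs, where 4.19% of all entries were called. miR-411 (0.96 ± 0.249; adjusted p = 0.0891), miR-323 (0.76 ± 0.233; adjusted p = 0.12) and miR-382 (0.46 ± 0.289; adjusted p = 0.394) were not called. BF-2d replicate 3 was the lowest of its group for all 5. Without it, 4 members were called, and without any other library of the 6, 0 were, so these calls depended on single libraries.

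From BF-2d to BF-4d, miR-411 fell by 1.14 on the log2 scale (SE 0.262, adjusted p = 0.0327) and was the 1 member called, among 6.05% of all entries. It was also the 1 entry of the whole table that was called lower on day 4, against 25 called higher (15 and 23 with median-of-ratios scaling). That call was lost without BF-2d replicate 1 or 2 and without BF-4d replicate 2 or 3, each of which left 0 members. miR-758 had a log2FC of -0.72 ± 0.267 (adjusted p = 0.108) and miR-381-3p of -0.41 ± 0.189 (adjusted p = 0.194). That of miR-323 was -0.14 ± 0.273 (adjusted p = 0.77), while that of miR-382 was positive, at 0.64 ± 0.319 (adjusted p = 0.218). From BF-4d to BF-8d all 5 log2FC were negative, from -0.15 for miR-323 to -1.29 for miR-382. None was called by limma, where 3.02% of all entries were called, and 4 had an unadjusted p under 0.05, as had 99 of the 430 entries. By edgeR 0 members were called among 13 entries, and by DESeq2 2 among 24. Over the whole table, 10 entries were called higher and 3 lower in BF-8d, or 10 and 5 with median-of-ratios scaling.

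Over the whole course, from BF-0d to BF-8d, miR-411 fell by 1.25 on the log2 scale (SE 0.282, adjusted p = 0.00185). It was the 1 member called, where 42.8% of all entries changed in either direction, and the call held without each library in turn but not when all 1587 entries were tested without a minimum level. The other 4 members missed the FDR, though all BF-8d libraries of miR-381-3p and miR-323 were above all their BF-0d libraries (231 of the 430 entries had no overlap between these groups), with means of 4368 and 6006 TPM and of 3.82 and 5.67 TPM. The log2FC was 0.46 ± 0.187 (adjusted p = 0.0579) for miR-381-3p, 0.47 ± 0.227 (adjusted p = 0.106) for miR-323, -0.19 ± 0.297 (adjusted p = 0.619) for miR-382 and -0.27 ± 0.205 (adjusted p = 0.307) for miR-758.

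Within IMF, few members were called between days. Neither from IMF-0d to IMF-2d nor from IMF-2d to IMF-4d did limma call a member, and it called 0% of all entries. An unadjusted p under 0.05 was reached by 68 entries in the first and 65 in the second, among them 1 member, miR-758, in each. By edgeR and DESeq2 0 members were called, and 7 and 9 entries in the first and 1 and 2 in the second. The 5 log2FC lay between -0.02 and 0.30 in the first comparison and between -0.34 and 0.02 in the second. In IMF-4d vs. IMF-8d all 5 were positive, from 0.13 for miR-411 to 0.62 for miR-381-3p. Again 0 were called by limma, where 13.0% of all entries were (53 higher and 3 lower on day 8, or 36 and 11 with median-of-ratios scaling), with 3 members among 139 entries at an unadjusted p under 0.05 and 0 members called by edgeR or DESeq2. Leaving out IMF-4d replicate 3 or IMF-8d replicate 1 brought the count to 1. With median-of-ratios scaling, edgeR or DESeq2 the log2FC of miR-411 was slightly negative instead.

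From IMF-0d to IMF-8d, miR-381-3p rose by a log2FC of 0.61 ± 0.186 (adjusted p = 0.0408) and was the 1 member called, where 30.5% of all entries were. miR-758 passed the FDR (adjusted p = 0.0332) but not the fold, with a log2FC of 0.41 ± 0.117. The call of miR-381-3p was lost without IMF-0d replicate 1 or 3 and without IMF-8d replicate 2 or 3, each leaving 0 members, whereas 2 were called without IMF-0d replicate 2. It was also lost with median-of-ratios scaling, edgeR and DESeq2.

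Whether the time course differed between the sources was tested with the 24 libraries in one limma model, as an F test of 3 interaction terms between source and day, at an FDR under 0.05. It did for 4 of the 5 members, where 31.6% of all 430 entries passed. These were miR-758 (F = 16.03, adjusted p = 0.000129), miR-411 (F = 12.8, adjusted p = 0.000329), miR-381-3p (F = 12.003, adjusted p = 0.000478) and miR-382 (F = 5.22, adjusted p = 0.027), while miR-323 did not pass (F = 2.73, adjusted p = 0.15). Without the libraries numbered 1 (adjusted p = 0.182) or those numbered 3 (adjusted p = 0.168), miR-382 no longer passed and 3 members did.

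Between neighbouring days, the members called differed by step. From day 0 to day 2, the log2 change in IMF minus that in BF was -1.03 ± 0.250 for miR-381-3p (adjusted p = 0.0296) and -1.04 ± 0.265 for miR-758 (adjusted p = 0.0346), 2 members in a step where 2.33% of all entries passed. Over that step their log2FC was 1.32 and 1.34 in BF and 0.29 and 0.30 in IMF. From day 2 to day 4 no member passed by limma, where 7.67% of entries did, although the difference for miR-411 was 0.90 ± 0.339 (unadjusted p = 0.014, adjusted p = 0.107) and about as large as its uncalled difference of -0.93 ± 0.339 (adjusted p = 0.169) from day 0 to day 2. It was the 1 member among 94 entries with an unadjusted p under 0.05 in that step. From day 4 to day 8, 4 members passed, where 12.3% of entries did, with differences of 1.07 ± 0.250 for miR-381-3p (adjusted p = 0.00493), 1.305 ± 0.265 for miR-758 (adjusted p = 0.00179), 1.20 ± 0.339 for miR-411 (adjusted p = 0.0195) and 1.64 ± 0.432 for miR-382 (adjusted p = 0.0119). In this step all 5 log2FC were negative in BF and positive in IMF. Over the full course from day 0 to day 8, miR-411 alone among the members differed (1.17 ± 0.339, adjusted p = 0.0142), where 20.7% of entries did.

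**Figure D3:**
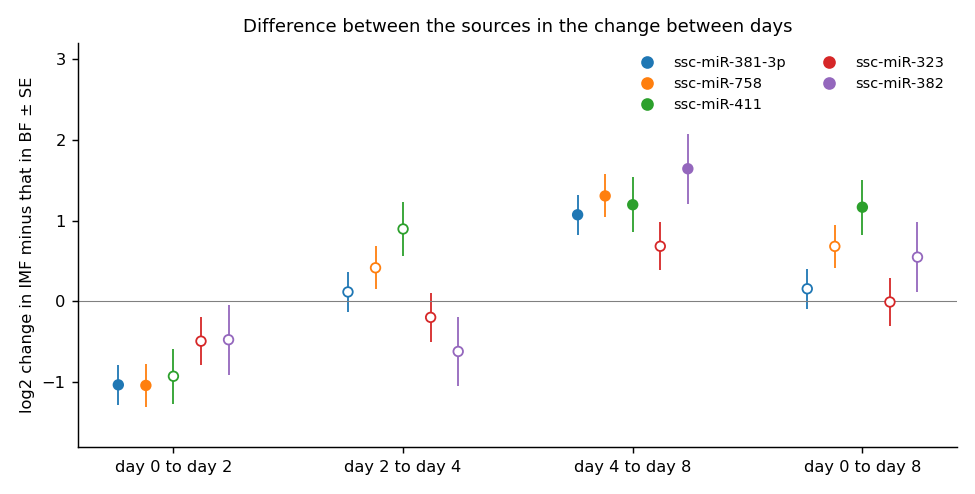
Difference between the sources in the log2 change between days (IMF minus BF, points with SE) for the 5 members, filled where the FDR was under 0.05 over all 430 entries. miR-381-3p and miR-758 lie near -1.03 and -1.04 from day 0 to day 2, 4 members lie between 1.07 and 1.64 from day 4 to day 8, and miR-411 alone is filled over the full course.

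Ordered by mean level, the groups fell into a BF range and an IMF range for each of the 4 most abundant members. For miR-381-3p the order was BF-0d (4368 TPM), BF-8d (6006 TPM), BF-4d (8186 TPM), BF-2d (11088 TPM), IMF-4d (19520 TPM), IMF-0d (19656 TPM), IMF-2d (23808 TPM) and IMF-8d (30049 TPM). The libraries of BF-4d and BF-2d overlapped, as did each pair of neighbours among the 4 IMF groups. For miR-411 the lowest group was instead BF-8d (3.0 TPM), followed by BF-4d (6.91 TPM), BF-0d (8.0 TPM) and BF-2d (16.9 TPM), with all 4 IMF groups between 24.4 and 29.0 TPM and each overlapping the next. miR-758 was lowest in BF-8d (33.5 TPM) and miR-323 in BF-0d (3.82 TPM), and both were highest in IMF-8d, at 238 and 19.8 TPM.

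Ratios between members do not depend on the total of a library. miR-381-3p was 108 ± 7.39 (SD, n = 3) times as abundant as miR-758 in BF-0d and 109 ± 6.94 times in IMF-0d, and this ratio reached 182 ± 36.3 in BF-8d against 126 ± 14.4 in IMF-8d. The ratio of miR-758 to miR-323 was 10.6 ± 0.973, 14.6 ± 0.891, 9.98 ± 1.99 and 5.96 ± 1.17 in BF on days 0, 2, 4 and 8, and 12.9 ± 2.97, 12.9 ± 1.12, 13.4 ± 1.59 and 12.1 ± 1.10 in IMF. Its group means thus stayed between 12.1 and 13.4 in IMF and were lower on day 8 than on day 2 in BF. The ratio of miR-411 to miR-323 moved in the same way, from 2.31 ± 0.0373 in BF-2d to 0.555 ± 0.386 in BF-8d, against 1.70 ± 0.246 and 1.37 ± 0.323 in IMF. The BF-8d libraries had ratios of 0.321, 0.343 and 1.0, so that the mean was 0.332 without replicate 3, and rest on the 12 to 26 reads of miR-411 given above. miR-758 to miR-411, the pair with the shared 3′ end, went from 5.10 ± 0.764 in BF-0d to 13.9 ± 7.43 in BF-8d and from 6.33 ± 0.409 to 9.12 ± 2.12 in IMF.

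Because miR-411 and miR-323 passed the minimum of 10 TPM only through IMF, the ratios are given as a description without a test. The log2 ratio of miR-758 to miR-323 in IMF minus that in BF was 0.26, -0.18, 0.44 and 1.03 on days 0, 2, 4 and 8. For miR-381-3p to miR-758, which were above the minimum in both sources, this difference was 0.01, 0.04, -0.26 and -0.52.

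**Figure D4:**
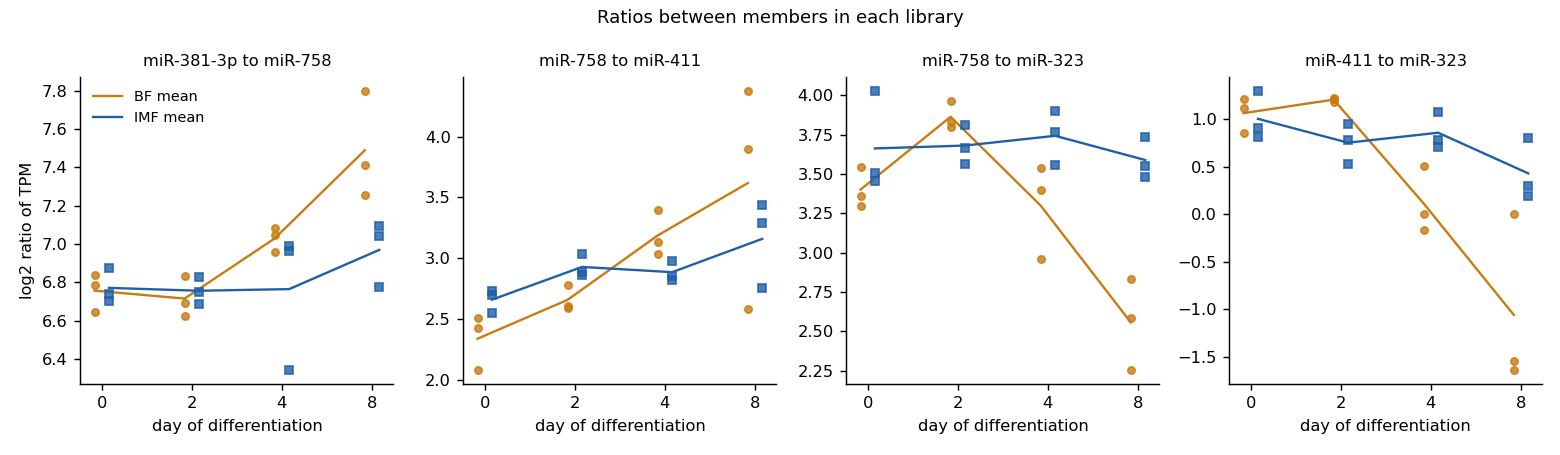
log2 ratio of TPM between 4 pairs of members in each library (points) and the group mean of 3 libraries (lines), BF in orange circles and IMF in blue squares, with days evenly spaced. The ratios of miR-758 and of miR-411 to miR-323 are lower in BF on day 8 than on day 2, from 14.6 to 5.96 and from 2.31 to 0.555 on the linear scale, and stay in a narrower range in IMF.

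Only the 958 entries with a listed position could be placed. Among them, the same stretch of the scaffold, extended to 70551, holds 14 further entries, of which 10 averaged 1 TPM or more. One of these, novel_miR_966, averaged 0.749 TPM in BF and passed the minimum through IMF (2.69 TPM). It is left out of the counts that follow. Of the other 9, limma called 9 higher in IMF on day 0 and on day 8, 3 on day 2 and 6 on day 4, and none lower, where 13.5%, 12.1%, 5.81% and 7.44% of all entries were called higher on those days. Their median log2FC was 1.59, 0.74, 0.79 and 1.76 on the 4 days. The most abundant, novel_miR_461, was at 50.5, 117, 76.2 and 18.2 TPM in BF and 238, 196, 202 and 190 TPM in IMF as means of 3 libraries, and had the highest log2FC among these and the members on day 8 (3.35 ± 0.212, adjusted p = 5.24e-08). novel_miR_716 (log2FC 2.94 ± 0.246 on day 8) and novel_miR_2 (1.61 ± 0.229) were the others above 10 TPM, of which novel_miR_716 averaged under 10 TPM in BF and passed through IMF. Hairpins that lie close together had unlike folds on some days. Those of miR-323 and miR-758 start 2405 and 2721 bases after that of miR-411. Their log2FC was 1.64 and 2.80 on day 8, the widest gap, but 1.16 and 1.08 on day 2. On day 0 it was 1.65 and 2.12, and on day 4 0.96 and 1.497. This scale understates the change of miR-323, and the difference between these 2 miRNAs was not tested.

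**Figure D5:**
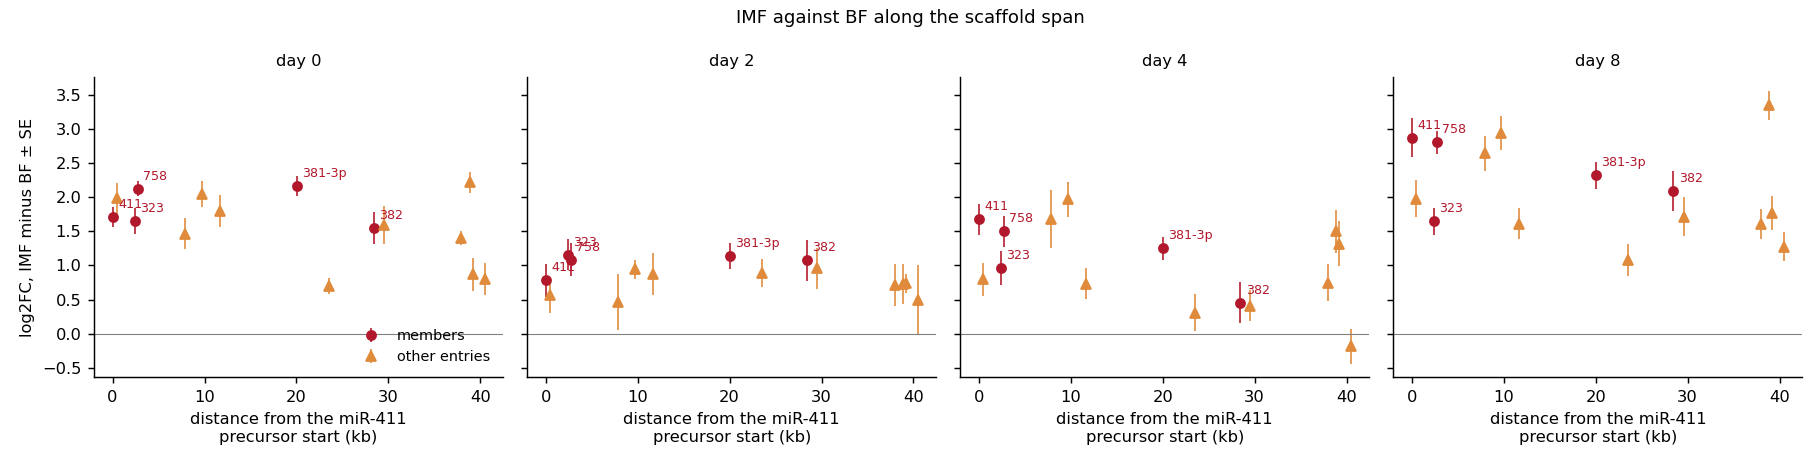
log2FC of IMF minus BF with SE on each day against the distance of the hairpin from that of miR-411 (kb), for the 5 members (red circles, named) and 10 other entries of the scaffold (orange triangles). The other entries include novel_miR_966, which passed the minimum level only through IMF. On day 4 miR-382 at 0.45 lies below the other 4 members.

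The proximal portion of the miRNA row, on chromosome 7 near MEG3 and RTL1, gave 8 of the 958 entries placed, of which 7 averaged 1 TPM or more. They include miR-127, which is processed from the transcript antisense to RTL1. All 7 were called higher in IMF on day 0 (13.5% of all entries) and day 8 (12.1%), 4 on day 2 (5.81%) and 6 on day 4 (7.44%), with median log2FC of 1.91, 1.003, 0.83 and 2.30. All log2FC of these 7 were positive on each day, as were those of the 5 members. miR-127 averaged 410, 952, 830 and 393 TPM in BF and 1546, 1756, 1485 and 2078 TPM in IMF on days 0, 2, 4 and 8. miR-370 was at 43.0, 116, 58.1 and 20.4 TPM in BF and at 213, 173, 124 and 120 TPM in IMF.

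The 10 entries most like miR-381-3p were ranked by Pearson's r of log2(TPM + 1) over the 24 libraries, among 429 others, as a description without a test, since all values of a library share its depth and total. They were miR-758 (r = 0.966), miR-323 (0.961), novel_miR_650 (0.960), miR-127 (0.958), miR-136-3p (0.945), miR-493-5p (0.944), miR-432-5p (0.936), novel_miR_190 (0.936), miR-493-3p (0.888) and novel_miR_716 (0.882). Of these 10, 2 are members, 1 lies on the same stretch of scaffold, 5 on the chromosome 7 portion and 2 were not among the entries placed on either. miR-411 stood at rank 21 (0.839) and miR-382 at rank 24 (0.832).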

How the data were processed

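The authors mapped clean reads without mismatches to Sscrofa11.1 with Bowtie, identified known miRNAs against miRBase and predicted others with miRDeep2. The deposited values, named TPM, are RPM: reads per 1000000 reads counted on miRNAs. All 38088 values lay within 0.000744 of whole reads, and no pair of replicates matched within sampling noise (chi-square per degree of freedom from 49.2 over 24 pairs). Groups came from the sample titles. limma 3.58.1 (eBayes with trend, R 4.3.3) was fitted to log2(TPM + 1) of the 2 groups compared. The members and lists were chosen with earlier results of these data known, so their calls describe these libraries. Members with a mean of at least 10 TPM, list entries of at least 10 TPM and the 10 entries most like miR-381-3p were named. Sequences and precursor positions came from the supplementary list of miRNAs, of which 958 entries were used, and exact copies were searched in the RefSeq copy of Sscrofa11.1. Alternatives were edgeR 4.0.16 and DESeq2 1.42.0 on whole reads, median-of-ratios scaling, other filters and pseudocounts, a replicate block, one fit of all libraries and leaving out libraries. On simulated data for BF-4d vs. IMF-4d (430 entries, 200 changed), the fit recovered 46.2% of 2-fold and 94.0% of 4-fold changes, with 2.63% and 2.69% false calls. The simulation left the 10 most abundant entries unchanged, drew changes up and down with equal odds and held no shift of shares between libraries. Its rates may therefore not hold for these values, which are shares.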

Additional observations from a re-analysis of the deposited data

Results flagged for a closer look

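The time courses of 4 members differed between BF and IMF by the interaction F test, with adjusted p of 0.000478 for ssc-miR-381-3p, 0.027 for ssc-miR-382, 0.000329 for ssc-miR-411 and 0.000129 for ssc-miR-758, where 31.6% of all entries passed. By step, the log2 change in IMF minus that in BF differed from day 0 to day 2 for ssc-miR-381-3p (-1.03) and ssc-miR-758 (-1.04), as it did for 2.33% of all entries. From day 4 to day 8 it differed for ssc-miR-381-3p (1.07), ssc-miR-382 (1.64), ssc-miR-411 (1.20) and ssc-miR-758 (1.305), against 12.3% of all entries. From day 0 to day 8 it differed for ssc-miR-411 (1.17), against 20.7% of all entries. Each of these was a test of the difference itself over all 24 libraries, adjusted over 430 entries. The cause of these differences was not tested.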

How the results depend on the processing

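The alternatives moved the counts of members called mainly where few were called. For BF-2d vs. IMF-2d (3 members), 0 were called without the minimum level, 5 with median-of-ratios scaling, with one fit of all 24 libraries, with edgeR and with DESeq2, and 0 to 4 when a library was left out. Without the minimum level, 2 of all 1587 entries were called. The other settings called, in that order, 60, 69, 68 and 65 of the 430 entries, against 53 in the main fit. For BF-0d vs. BF-2d (2 members) the same settings gave 0 without the minimum, 4 with each of the others and 0 to 4 with a library left out. These settings called 5 of 1587 entries without the minimum and 37, 46, 56 and 56 of 430 with the others, against 18 in the main fit. For BF-2d vs. BF-4d (1 member) they gave 0 without the minimum, 2 with median-of-ratios scaling, the single fit and edgeR, 3 with DESeq2 and 0 to 1 with a library left out. These settings called 0 of 1587 entries without the minimum and 38, 104, 17 and 54 of 430 with the others, against 26 in the main fit. For BF-4d vs. BF-8d (0 members), a minimum of 10 TPM gave 2, median-of-ratios scaling 1, the single fit 3 and DESeq2 2. Over all entries, the first called 18 of 224 and the others 15, 81 and 24 of 430, against 13 in the main fit. For IMF-4d vs. IMF-8d (0 members), a minimum of 10 TPM and the single fit gave 1, and leaving out a library 0 to 1. That minimum called 54 of 224 entries and the single fit 69 of 430, against 56 in the main fit. For BF-0d vs. BF-8d, 0 were called without the minimum, where 155 of 1587 entries were, against 184 of 430 in the main fit. For IMF-0d vs. IMF-8d, the FDR alone gave 2, no minimum, median-of-ratios scaling, edgeR and DESeq2 gave 0, and leaving out a library 0 to 2. Without the minimum, 70 of 1587 entries were called. Median-of-ratios scaling, edgeR and DESeq2 called 128, 147 and 136 of 430, against 131 in the main fit. BF-4d vs. IMF-4d (4 members) gave 3 without the minimum and 5 with DESeq2, among 50 of 1587 and 127 of 430 entries called. With libraries left out, it ranged from 3 to 4, and the members with a differing time course from 3 to 4.

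Some log2FC near 0 changed sign with a library left out. They ranged from -0.36 to 0.0519 for miR-323 in BF-2d vs. BF-4d, -0.26 to 0.0198 for miR-323 in BF-4d vs. BF-8d, -0.22 to 0.16 for miR-382 and -0.0380 to 0.0965 for miR-411 in IMF-0d vs. IMF-2d, -0.13 to 0.32 for miR-382 in IMF-2d vs. IMF-4d, -0.0269 to 0.25 for miR-411 in IMF-4d vs. IMF-8d, -0.48 to 0.16 for miR-382 in BF-0d vs. BF-8d and -0.24 to 0.0306 for miR-411 in IMF-0d vs. IMF-8d. For miR-411, edgeR gave -0.0310 in IMF-0d vs. IMF-2d, and in IMF-4d vs. IMF-8d median-of-ratios scaling gave -0.0563, edgeR -0.0867 and DESeq2 -0.0940. The mean over the days of the log2 ratio in IMF minus that in BF was, for miR-381-3p to miR-323, 0.21 and became 0.36 with a pseudocount of 1 TPM. That of miR-758 to miR-411 was -0.04, and 0.12 with that pseudocount and -0.18 to 0.0297 without a replicate number, and that of miR-758 to miR-323 was 0.39, and 0.32 to 0.42 without one. The causes were not tested.

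With the replicate number as a block, 0 members were called in BF-2d vs. IMF-2d and 0 in BF-0d vs. BF-2d. Of all 430 entries, 9 and 0 were called in these 2 comparisons. No other count of members moved by over 1.5 times. Deviations of same-numbered libraries correlated at -0.329 to 0.509, over 0.1 in 21 of 84 pairs. Those of other-numbered libraries correlated at -0.469 to 0.386, over 0.1 in 41 of 168 pairs, and 9 of 24 libraries were closest to their own number. The numbers thus showed no clear pairing. Since the piglet of each culture is not known, this cannot show whether libraries were paired by piglet.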

Other observations

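Near the members, novel_miR_231 (30472 to 30493) and ssc-miR-299 (30473 to 30493) lie on opposite strands of the scaffold, with 11 reads of novel_miR_231 and 1957 of ssc-miR-299 over the 24 libraries. The entry novel_miR_683, whose hairpin lies inside the noncoding gene LOC110258356, was the exception among the 9 other entries of the scaffold with at least 1 TPM in each source on day 4, with a log2FC of -0.19 for IMF minus BF (adjusted p = 0.611 by limma) where the other 8 were positive.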
